A study of Homo sapiens with 9 samples.

Results

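The comparison concerns chromatin accessibility in K562 cells homozygous for the STAG2 R614* mutation against the parental, unmutated K562 cells, with 3 ATAC-seq libraries of each, 6 of the 9 libraries of the study. K562 is a line from a chronic myeloid leukaemia with erythroid and megakaryocytic features, and both groups were grown in Iscove's medium with fetal bovine serum. The homozygous cells (genotype -/-) were edited with CRISPR-Cas9, their libraries all carry the same line name in the labels, and they grew attached and were lifted with trypsin-EDTA. Genotype, edited line and attached growth change together and cannot be told apart. A line with 1 mutated and 1 intact allele (+/-), also edited, was used only to look up regions found here. ATAC-seq uses the Tn5 transposase to insert adapters into open DNA, here from 50000 cells per library. The labels do not say that replicates came from separate cultures, so the p-values measure only the spread between these libraries.

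STAG2 is a subunit of cohesin, the ring that extrudes DNA loops until it meets CTCF, a zinc finger protein bound to a long DNA motif. STAG1 is its paralog and takes its place in other cohesin rings. AP-1 is a family of dimeric bZIP factors (FOS, JUN and relatives) that bind a short palindrome in enhancers and respond to growth signals and to attachment. TEAD factors bind another short motif and act with YAP in adherent cells. GATA and RUNX factors define the blood lineage from which K562 derives.

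In each library the 50000 peaks with the highest −log10 p on chromosomes 1 to 22 and X were kept, and overlapping peaks of the 6 libraries were merged into 95883 regions. A region is called homozygous-only when all 3 homozygous libraries had it and 0 of the 3 wild type libraries did, and wild-type-only in the reverse case. There were 2604 homozygous-only regions, 2.72% of all regions, and 3277 wild-type-only regions, 3.42%. Leaving out homozygous replicate 1, 2 or 3 gave 4386, 4614 and 4132 homozygous-only regions, and leaving out wild type replicate 3 gave 7348 wild-type-only regions. The latter leaves the 2 wild type libraries that share intervals, whose part in that count was not tested. Another 21111 regions were present in all 6 libraries. A region's strength in a library is given as the percentile of its −log10 p among the 50000 peaks of that library, so 100 is the strongest peak. The lists hold between 181579 and 319986 intervals per library for these 2 groups, and the read depth behind them is unknown. Wild type replicates 1 and 2 shared 23.2% of identical intervals, against 0.223% to 0.351% in the other 14 pairs of the 6 libraries, so the wild type libraries are not fully independent. The mutated gene itself cannot be checked from peaks, since they do not show the edited base.

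Line markers overlapped between the groups. Of 12 erythroleukaemia genes, between 5 and 9 per library had a strong peak within 1 kb of a start site. TAL1 and TFRC were among those with one in all 6 libraries, while GATA1, KLF1 and ALAS2 had none in any of them. Of 10 mesenchymal genes, between 2 and 3 per library had such a peak. COL1A1 and COL1A2 had one in all 6 libraries, and COL3A1, THY1, TWIST1, TWIST2, PRRX1 and LUM had none. PRRX1 did hold 1 homozygous-only region in its body or within 10 kb. Of 8 epithelial genes, EPCAM, KRT8 and KRT18 had such a peak in all 6 libraries, and of 8 lymphoid genes CD3D did. The tumour suppressor CDKN2B, deleted in K562, had 0 intervals in every full list, and CDKN2A had 0 in 5 lists and 1 in wild type replicate 2.

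The regions that carried the motif difference are shown first, because the 2 directions differ in the sequence they hold. The following 4 stretches of GRCh37 come from homozygous-only regions outside exons, among the strongest that hold an AP-1 motif (TGANTCA, searched on both strands), of which the match used is in capitals; the last stretch holds another match near its 3′ end, in lower case.
KCNH5 intron, chr14:63424446-63424542, plus strand: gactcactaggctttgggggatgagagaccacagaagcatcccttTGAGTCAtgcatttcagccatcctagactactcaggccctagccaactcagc
MMADHC-DT intron, chr2:150505258-150505354, plus strand: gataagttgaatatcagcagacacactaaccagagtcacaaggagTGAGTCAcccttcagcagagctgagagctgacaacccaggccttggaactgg
Between genes, nearest start TFAM, chr10:60195303-60195399, plus strand: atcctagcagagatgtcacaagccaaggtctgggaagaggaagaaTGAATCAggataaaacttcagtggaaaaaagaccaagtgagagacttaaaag
LINC02227 intron, chr5:157809607-157809703, plus strand: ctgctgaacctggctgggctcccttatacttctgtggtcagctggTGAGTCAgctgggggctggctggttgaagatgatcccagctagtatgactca

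The region in KCNH5, a potassium channel gene, was at percentiles 93.8, 96.2 and 96.3 in homozygous replicates 1 to 3. The region in the noncoding gene MMADHC-DT was at 94.8, 92.1 and 97.3, and the one nearest to TFAM at 92.9, 97.4 and 91.8. The region in LINC02227 was at 93.8, 91.2 and 98.2. All 4 were among the stronger peaks of every homozygous library and were missing from the 50000 of every wild type library.

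The next 4 stretches come from wild-type-only regions outside exons, among the strongest with a CTCF motif, again in capitals, printed on the strand that carries it.
GRIP1 intron, chr12:67087830-67087921, minus strand: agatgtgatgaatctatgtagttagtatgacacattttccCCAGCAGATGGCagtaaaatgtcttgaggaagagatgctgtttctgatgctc
Between genes, nearest start CCDC160, chrX:133388123-133388214, minus strand: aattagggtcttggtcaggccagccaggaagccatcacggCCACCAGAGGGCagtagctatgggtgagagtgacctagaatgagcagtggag
Between genes, nearest start AMOT, chrX:112503820-112503911, plus strand: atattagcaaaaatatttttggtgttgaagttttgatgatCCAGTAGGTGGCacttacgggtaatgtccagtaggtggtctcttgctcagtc
TAX1BP1 intron, chr7:27824208-27824299, minus strand: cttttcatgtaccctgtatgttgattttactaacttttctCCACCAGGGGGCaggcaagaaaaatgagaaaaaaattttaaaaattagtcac

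In wild type replicates 1 to 3 the region in GRIP1, a scaffold protein gene, was at percentiles 80.4, 79.5 and 80.7, and the one nearest to CCDC160 at 81.0, 78.1 and 82.9. The region nearest to AMOT was at 74.6, 73.8 and 82.4, and the one in TAX1BP1 at 73.4, 68.7 and 72.9. None of the 4 was among the 50000 peaks of a homozygous library.

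Homozygous-only regions held the AP-1 motif more often than the other sets. It lay within 500 bp around the midpoint of 45.2% of them (95% Wilson interval 43.3% to 47.1%), of 17.7% of wild-type-only regions (16.5% to 19.1%), of 17.7% of regions in all 6 libraries and of 23.6% of all regions. The same search 2 kb downstream found it at 15.4% and 13.4% for the homozygous-only and wild-type-only regions. CTCF motifs went the other way: 8.06% of wild-type-only regions held one (7.17% to 9.04%), against 1.15% of homozygous-only regions (0.808% to 1.64%), 4.66% of regions in all 6 libraries and 4.65% of all regions. The search 2 kb downstream gave 0.122% for wild-type-only regions. The Wilson intervals reflect counting alone, and all regions of a genotype come from the same 3 libraries. The CTCF share depended on how many peaks were kept: it was 4.51% of wild-type-only regions with 100000 peaks per list, 1.11% with full lists, and 3.26% where every homozygous list lacked any peak.

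**Figure D1:**
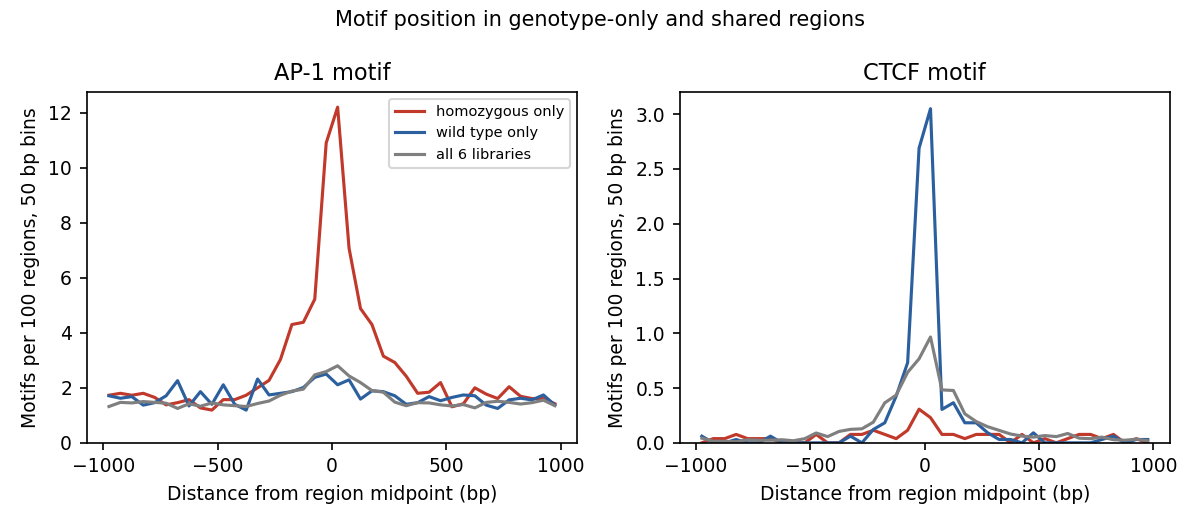
Motifs per 100 regions in 50 bp bins by distance from the region midpoint, for AP-1 (left) and CTCF (right), in homozygous-only (red), wild-type-only (blue) and shared regions (grey). AP-1 reached 12.2 per 100 homozygous-only regions beside the midpoint and stayed at 2.8 or less in the other sets, and CTCF reached 3.05 per 100 wild-type-only regions.

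Read as the fate of regions, 18.9% of the 6217 AP-1 regions present in all 3 homozygous libraries were missing from all wild type libraries, against 9.21% of all such regions. In wild type the share was 9.57% of 6071 AP-1 regions, against 9.88% overall. Of the 2092 CTCF regions present in all 3 wild type libraries, 12.6% were missing from all homozygous libraries; regions with FOX (14.4%), GATA (13.2%), RUNX (13.1%) and C/EBP (12.8%) had larger shares. Of the 1184 present in all 3 homozygous libraries 2.53% were missing from wild type. Shares also differed by distance from promoters, here taken from the region's edge. Among CTCF regions farther than 1 kb from a start site 13.3% were wild-type-only, and within 1 kb 4.94%. Among AP-1 regions the homozygous-only share was 20.4% farther away and 6.57% within 1 kb.

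**Figure D2:**
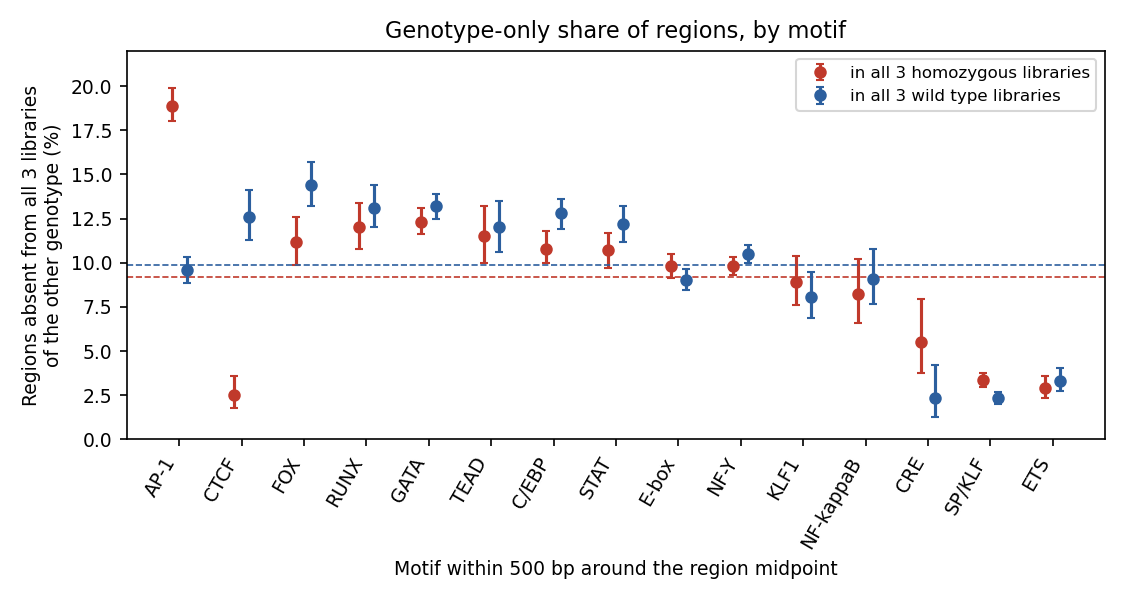
Share of the regions present in all 3 libraries of a genotype that were absent from all 3 libraries of the other, by motif, with 95% Wilson intervals (red homozygous, blue wild type, dashed lines the share over all regions). AP-1 stands above the rest in the homozygous cells at 18.9%, CTCF lies at 2.53% in the homozygous and 12.6% in the wild type cells, below FOX, GATA, RUNX and C/EBP in the latter, and ETS and SP/KLF regions are below the dashed lines in both.

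Other motifs also differed in frequency between the sets. SP/KLF (GGGCGGG) was in 11.1% of homozygous-only and 6.1% of wild-type-only regions, and the E-box CAGCTG in 29.9% and 24.8%. The forkhead (FOX) motif TGTTTAC was in 12.5% of wild-type-only and 8.91% of homozygous-only regions. The RUNX motif TGTGGTT was in 12.1% and 11.3%, and the GATA motif AGATAA in 34.7% and 33.3%. The TEAD motif ACATTCC was in 6.91% of homozygous-only regions (6% to 7.95%) and in 6.26% of the positions 2 kb downstream, so these letters were about as frequent as in the flanking DNA. The cyclic AMP element TGACGTCA was in 0.998% of homozygous-only and 0.305% of wild-type-only regions.

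Each library was also summarised on its own. Within 50 bp of a summit, AP-1 lay at 10.8%, 10.2% and 13.1% of the strongest peaks' summits in homozygous replicates 1 to 3 and at 8.20%, 8.25% and 7.35% in wild type. The groups did not overlap, with means of 11.4% ± 1.55 (SD, n = 3) and 7.93% ± 0.505 (SD, n = 3). CTCF lay at 2.74%, 2.60% and 2.35% in the homozygous and 3.44%, 3.35% and 3.25% in the wild type libraries, which did not overlap either. With 3 libraries against 3 the exact two-sided permutation p cannot go below 0.1; both motifs reached 0.1, and 0.3 after Benjamini-Hochberg adjustment over 15 motifs, so neither passes 0.05. Groups failed to overlap for 5 of the 15 motifs, the other 3 being RUNX, C/EBP and STAT, with differences of -0.253, -0.203 and -0.131 percentage points. With full lists, whose lengths differ, the CTCF difference was 0.0677 points (exact p = 0.7), while AP-1 stayed apart at 2.26 points (exact p = 0.1). GATA was at 7.71% ± 0.259 and 7.74% ± 0.728 (SD, n = 3 each).

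CTCF regions found in every library ranked lower in the homozygous cells. The 984 regions with a CTCF motif in all 6 libraries had mean percentiles of 63.5, 62.4 and 58.0 in the homozygous and 68.4, 68.4 and 69.3 in the wild type libraries, a difference of -7.42 points with no overlap (exact two-sided permutation p = 0.1, the smallest possible). The 20127 shared regions without the motif differed by -0.0198 points (exact p = 1). Shared regions with GATA differed by -3.88 points and those with RUNX by -3.35, both without overlap, while those with SP/KLF were 3.35 points higher and those without SP/KLF differed by -2.38. The 3742 shared AP-1 regions showed no such separation, at 67.0 ± 1.42 and 67.8 ± 1.20 (SD, n = 3; exact p = 0.4). These means by motif were added after the data had been seen.

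By annotation, 8.45% of homozygous-only regions had their midpoint within 1 kb of a protein-coding start site, against 5% of wild-type-only regions, 40.5% of regions in all 6 libraries and 14.8% of all regions. Introns held 51.5% of homozygous-only and 53.7% of wild-type-only regions. Gene-poor places, over 250 kb from any start site, held 7.72% of homozygous-only and 12.3% of wild-type-only regions, against 9.33% of all. Per library, such places held 7.31%, 7.36% and 6.36% of the strongest peaks in the homozygous cells and 8.19%, 8% and 7.77% in wild type. These groups did not overlap (exact permutation p = 0.1, adjusted over 5 classes 0.25). The start-site share, 23.5% ± 0.756 and 22.6% ± 0.198 (SD, n = 3), overlapped (exact p = 0.2). Median GC content around the midpoint was 47.4% for homozygous-only and 44.8% for wild-type-only regions, and the part of base composition in these results was not tested.

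The differing regions were unevenly spread over chromosomes. The gene-rich chromosomes 17, 19 and 22 had the highest homozygous-only shares, 4.45%, 4.20% and 4.82% of their regions, and the lowest wild-type-only shares, 1.18%, 0.714% and 0.789%. Wild-type-only shares were highest on chromosomes 14, X and 13, at 4.81%, 4.63% and 4.56%. Chromosomes 17, 19 and 22 together held 7.17%, 7.31% and 7.14% of the strongest peaks in the homozygous libraries and 5.52%, 5.51% and 5.50% in wild type (exact permutation p = 0.1, with no overlap). These 3 chromosomes were put together after their shares had been seen. The wild type lists had 3687 to 5309 peaks tied at the last value kept and the homozygous lists 1 to 163; ties were drawn at random, and taking them in genome order gave a difference of 1.52 points in place of 1.70.

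Many differing regions had a weaker peak in the other genotype. The full lists of all 3 wild type libraries held some peak at 52.8% of homozygous-only regions, and 0 of the 3 did at 10.6% (275 regions). For wild-type-only regions the shares in the homozygous lists were 42.1% and 8.42% (276 regions). The lowest percentile among a region's own 3 libraries had a median of 21.3 for homozygous-only and 22.2 for wild-type-only regions. With a lowest percentile of at least 50 there were 400 homozygous-only regions, 48.0% with AP-1, and 443 wild-type-only regions, 5.87% with CTCF. With at least 80, AP-1 was in 55% of 40 homozygous-only regions, while CTCF was in 0 of 53 wild-type-only regions, which allows a share of up to 5.66%, below the 8.06% of the whole set.

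The heterozygous libraries were looked up at the same regions. Of homozygous-only regions 73.8% were in 0 of the 3 heterozygous libraries and 1.61% in all 3. Of wild-type-only regions 50.4% were in all 3 and 4.30% in none. Heterozygous replicate 1 shares 46% of identical intervals with wild type replicate 3, so these counts are not independent of the wild type lists. Both sets were chosen by their presence or absence in wild type, and the same shares over all regions were not worked out. The counts therefore do not measure how alike the heterozygous and wild type lines are.

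Regions were ordered by the lowest of their 3 percentiles. The first homozygous-only region in that order, in an intron of POTEA with HGSNAT as its nearest start site, was at percentiles 97, 97.4 and 97.7. The one at the promoter of SIPA1L1, a regulator of Rap GTPases, was at 99.3, 98.9 and 95.1 (chr14:71995513-71996027). A region between genes, 64220 bp from the start of SH3RF1, was at 96, 95 and 97.8, and one in an intron of FGF13, an intracellular fibroblast growth factor, at 96.8, 94.7 and 93.9. The SIPA1L1 region had a peak at −log10 p 6.44 in wild type replicate 2, and the FGF13 region one at 6.41 in wild type replicate 3. Both peaks were tied at the last value kept and were left out only by the random draw. Of the first 8 wild-type-only regions, 5 lay between genes. One on chromosome 10, with REEP3 as its nearest start site 1345650 bp away, was at 96.4, 96.6 and 98.5 in wild type, and one on chromosome 21 nearest to MRPL39 at 96.9, 97.1 and 95.3. An intron of FGGY, a carbohydrate kinase gene, held one at 96.2, 93.2 and 94.7. In the full homozygous lists the region nearest to REEP3 had a −log10 p of 3.66, 4.42 and 4.68 in replicates 1 to 3, so weak peaks were still called there.

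With the distance taken from the region's edge, 232 homozygous-only regions (8.91% of them) and 193 wild-type-only regions (5.89%) lay within 1 kb of a start site. By midpoint the shares were 8.45% and 5%, both below the 14.8% of all regions. In the same order, SIPA1L1 was followed by PPFIA3, a liprin of synaptic junctions, with percentiles of 82.9, 79.4 and 86.7. Like SIPA1L1, PPFIA3 had a wild type peak tied at the last value kept (−log10 p 6.41 in replicate 3) that the random draw left out. SRPX2, which encodes a secreted protein, was at 75.0, 65.8 and 87.3, and NKX6-1, a homeobox factor of endocrine and neural cells, at 73.3, 82.4 and 64.4. PDK2, a kinase that restrains pyruvate dehydrogenase, was at 61.3, 92.2 and 70.0, and CRTC1, a coactivator of CREB, at 65.0, 85.1 and 58.1. The spread between replicates was wide at PDK2 and narrow at FAM111B (61.5, 64.9 and 61.9). IGFN1, KCND2, PLPP1, UTP25 and ODF3L1 complete the first 12.

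On the wild type side, LIG4, the ligase of DNA end joining, was at 98.4, 97.6 and 91.6, and the full list of every homozygous library lacked an interval there. ARID4A, a chromatin factor that binds the retinoblastoma protein, was at 83.9, 84.4 and 95.6. BCAR1, the focal adhesion scaffold p130Cas, was at 80.9, 85.2 and 83.9 at a start site inside the gene, which also held 1 homozygous-only region. PCDHB3, PCDHGB7 and PCDHGA1, from the protocadherin clusters, were at 63.3 to 79.7. STPG2, LRRD1, ITFG1, GFOD1, NUDT11 and TMEM131L complete the 12.

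**Figure D3:**
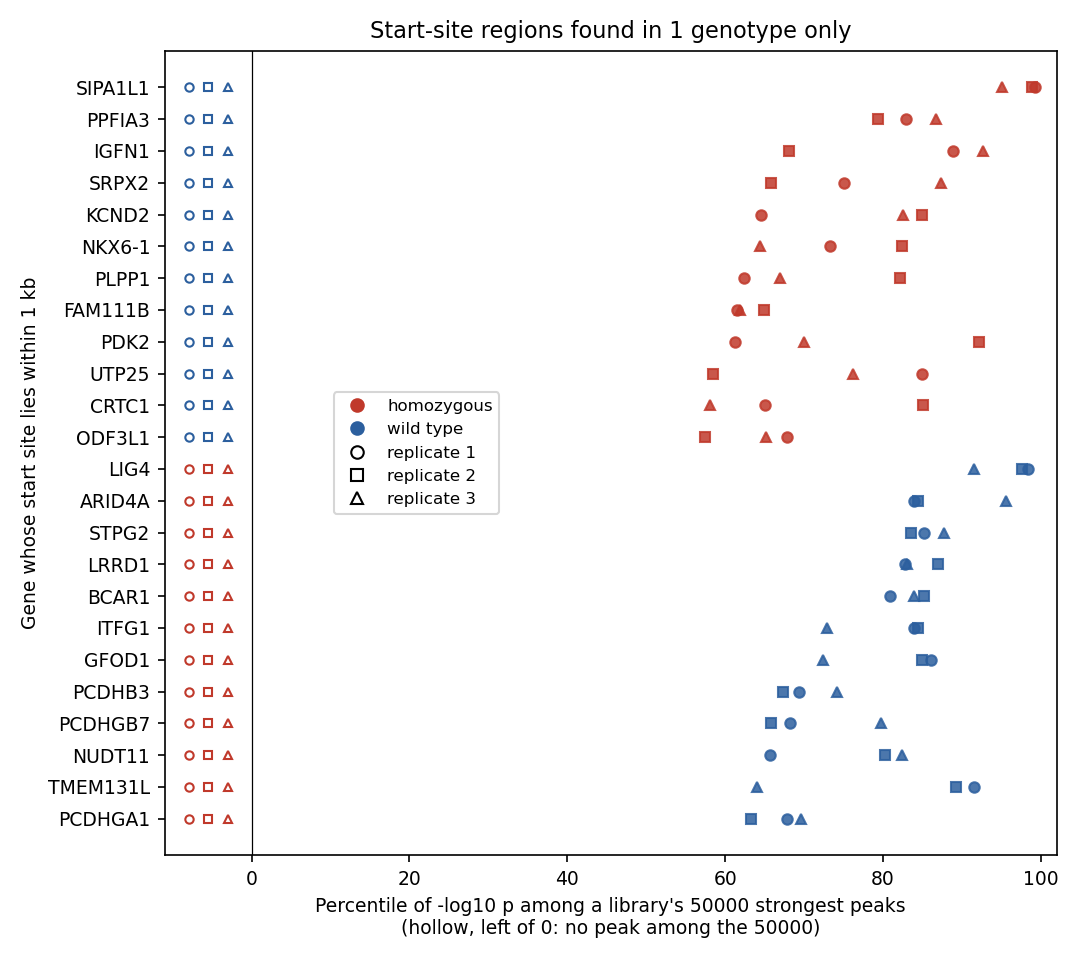
Percentile of −log10 p in each library at the 24 start-site regions, 12 per direction, with filled points for peaks among the 50000 (red homozygous, blue wild type; circle, square and triangle for replicates 1 to 3) and hollow points left of 0 where a library had none. Own-genotype values run from 57.5 to 99.3, with the widest spreads at PDK2, TMEM131L and CRTC1.

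Among regions of all 6 libraries, 1716 were higher in every homozygous than in every wild type library with means at least 20 percentile points apart (8.13%), and 1608 were lower (7.62%). The higher set had its midpoint near a start site in 45.7% and a CTCF motif in 2.45%. The lower set was near a start site in 17.5% and held a CTCF motif in 8.83% (7.54% to 10.3%). Over all regions of the 6 libraries these shares were 40.5% and 4.66%, so the start-site share departed most in the lower set. The start of RIMS4, a presynaptic scaffold gene, was at 99.3, 99.2 and 98.2 in the homozygous and 26.4, 23.5 and 20.4 in the wild type libraries. A region 40324 bp from LIMCH1, an activator of nonmuscle myosin, had means of 94.4 and 14.2, and one in an exon of CDC27, a subunit of the anaphase-promoting complex, 91.5 and 14.2. Both regions were at 3.56, 3.08 and 36 in wild type replicates 1 to 3. In wild type replicates 1 and 2 their peaks were tied at the last value kept, so the random draw placed them among the 50000. In the other direction an intron of LRMDA had means of 21.1 in the homozygous and 94.8 in the wild type libraries, one nearest to DUSP10, a MAP kinase phosphatase, 22.9 and 94.3, and one 2915 bp from EEF1A1, a translation elongation factor, 17.6 and 88.8.

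The genes with the largest excess of homozygous-only regions were led by MAML3, a coactivator of Notch signalling. Of its 41 regions 9 were homozygous-only and 0 wild-type-only, and the gene held 22, 21 and 27 strong peaks in homozygous replicates 1 to 3 against 8, 8 and 5 in wild type. Of the 9, 2 held an AP-1 motif, and these were the strongest, at 82.9, 83.4 and 96.5 and at 94.7, 74.7 and 96.7. TRIO, a guanine nucleotide exchange factor, had 7 of 39 regions homozygous-only, 5 of them with AP-1, and 2 wild-type-only, with 24, 24 and 25 against 10, 10 and 9 peaks. SH3KBP1, an adaptor in receptor endocytosis, had 6 of 23, and 1 wild-type-only. PTPN14, a phosphatase that restrains YAP, had 5 of 22, IGF1R, the receptor of insulin-like growth factor 1, 5 of 25, SETBP1 5 of 25, ESR1, the oestrogen receptor, 5 of 27, and CDK14 5 of 31. In all 8 genes every homozygous library held more peaks than any wild type library. They were chosen for this, so it is a description.

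PTPRC encodes CD45, the receptor phosphatase of white blood cells. Of its 9 regions 5 were wild-type-only and 0 homozygous-only, and the gene held 2, 1 and 1 peaks in the homozygous and 6, 7 and 9 in the wild type libraries. One of them, in an intron 10717 bp from the start site, was at 82.3, 88.5 and 78.7. All 5 were in all 3 heterozygous libraries. A single PTPRC region was in all 6 libraries, at 94.8, 44.2 and 82.5 in the homozygous and 97.7, 98.3 and 96.8 in the wild type cells. TBCK, a regulator of mTOR signalling, had 5 wild-type-only of 16 regions. The gene model ENSG00000239920, which has no symbol, had 7 of 31. Its span on chromosome 11 (5275622 to 5699664) contains the gene model of HBE1, whose 4 wild-type-only regions are among these 7. The other 5 genes with the largest excess were gamma protocadherins.

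Clustered protocadherins are cell adhesion proteins of neurons whose alternative promoters are chosen by CTCF and cohesin loops. Between the first and last gene of the cluster (chromosome 5, 140165721 to 140892544), 53 genes held 52 regions, of which 8 were wild-type-only and 0 homozygous-only. The homozygous libraries had 15, 13 and 13 of the 52 and the wild type libraries 29, 30 and 37, means of 13.7 ± 1.15 and 32.0 ± 4.36 (SD, n = 3; exact permutation p = 0.1, no overlap). Gamma protocadherins were already among the genes with the largest wild-type-only excess in these same libraries. The counts are therefore a description, and the p-value adds no independent support. At start sites of gamma protocadherins the homozygous libraries had 5, 3 and 4 of 18 regions and the wild type libraries 13, 13 and 15. For the beta genes the counts were 2, 1 and 2 of 12 against 4, 6 and 10, and for the alpha genes 0, 1 and 1 of 6 against 3, 4 and 4. Wild-type-only start-site regions lay at PCDHA5, PCDHB3, PCDHGA1, PCDHGA9, PCDHGB7, PCDHGA11 and PCDHGA12. The remaining one, at 54.6, 45.5 and 79.3, lay in an exon shared by the gamma genes, with DIAPH1 as its nearest start 11704 bp away, and was the only one of the 8 with a CTCF motif. PCDHGB7 was at 68.2, 65.8 and 79.7 and PCDHGA9 at 62.1, 61.9 and 86.8. The gamma gene bodies overlap, so 1 region counts for several of them. The clustered genes are paralogs, and how uniquely short reads were placed at them was not tested.

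**Figure D4:**
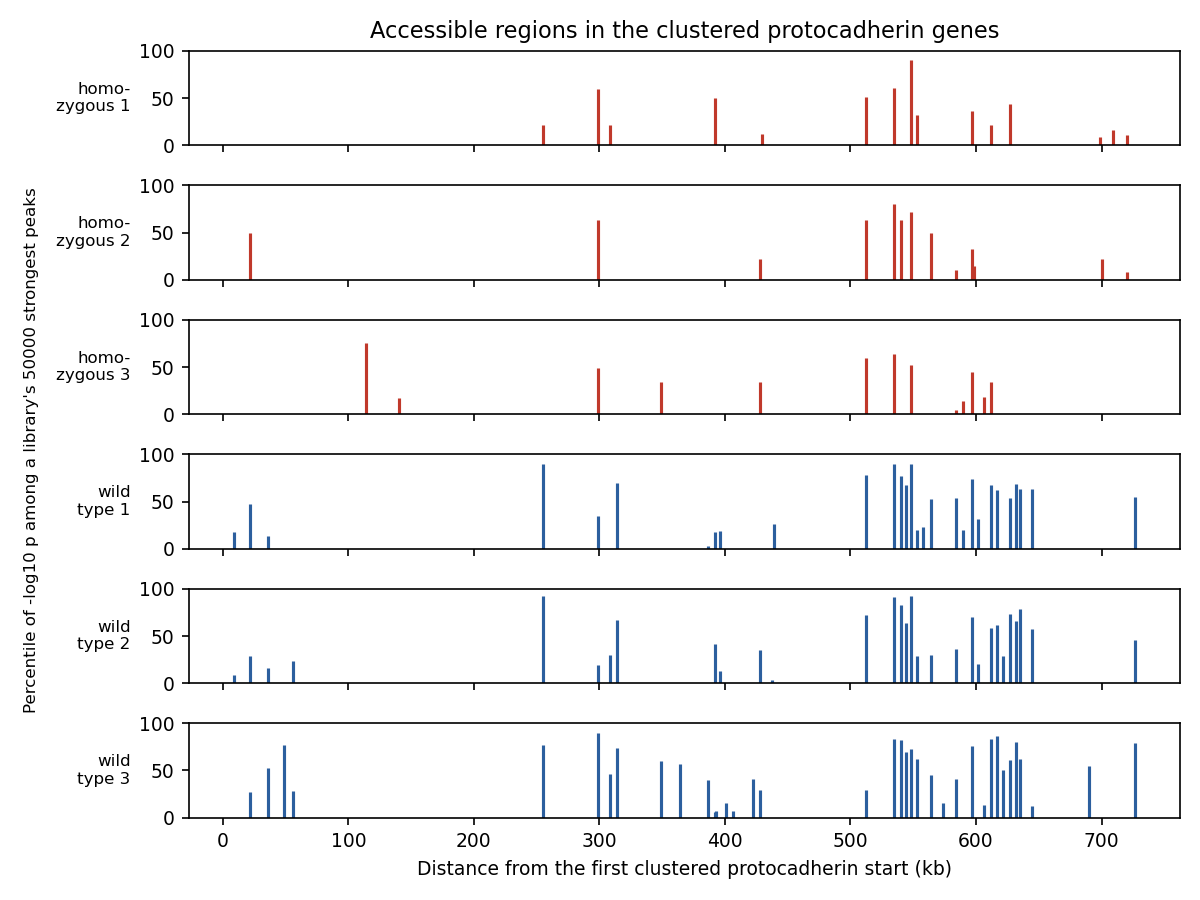
Regions in the clustered protocadherin genes, 1 panel per library, by distance in kb from the first start site, with height the percentile of −log10 p (red homozygous, blue wild type). The wild type panels hold 29 to 37 regions and the homozygous panels 13 to 15.

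Per 1 Mb window, the largest excess of homozygous-only regions lay on chromosome 5 from 14 Mb, the window of TRIO, with 12 against 2 of 84 regions. The windows of PTPN14 and PROX1 on chromosome 1 (9 against 1) and of SETBP1 on chromosome 18 (7 against 0) followed. In the other direction 2 windows had the same excess. On chromosome 10 from 66 Mb, a stretch with no protein-coding gene, 11 of 31 regions were wild-type-only, 0 homozygous-only and 0 in all 6 libraries, and the PTPRC window had 12 against 1. They were followed by the window of TNFAIP3 on chromosome 6, an inhibitor of NF-kappaB, with 10 against 0. The windows were chosen for these counts.

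The gene model of STAG2, 462.5 kb long, had 3 wild-type-only and 0 homozygous-only regions among 23. It held 13, 8 and 6 strong peaks in the homozygous and 18, 18 and 16 in the wild type libraries. The 2 STAG2 promoter regions were present in all 6 libraries. The first was at 74.8, 97.2 and 60.8 in the homozygous and 68.2, 65.9 and 68.7 in the wild type cells, which overlap. The second, further inside, was at 76.2, 72.0 and 80.6 against 91.0, 92.0 and 97.3, without overlap. The 3 wild-type-only regions lie in the far part of the gene model, beside SH2D1A and TEX13D, and one of them is at a start site. The model reaches these other genes, so its region and peak counts are not those of STAG2 alone. STAG1 had 0 differing regions among 9, and its promoter was at 98.8, 85.6 and 93.0 against 87.0, 90.0 and 64.7.

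Across genes, 8.7% of the 18300 protein-coding genes with any region in the gene body or within 10 kb had a homozygous-only region and 10.3% a wild-type-only one. The median gene had 3 regions. The 14 gene lists are read against these shares and against the 2.72% and 3.42% of regions. Their member counts are small and move with the libraries. Leaving out homozygous replicate 2, 1 or 3 moved the homozygous-only count of 10, 7 and 6 of the 14 lists by over 1.5 times, and leaving out wild type replicate 3 moved the wild-type-only count of 8. Where every full list of the opposite genotype had to lack a peak, every count was between 0 and 3.

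Neuronal adhesion and guidance genes held the largest number of wild-type-only regions. Of its 39 members 17 had a wild-type-only and 7 a homozygous-only region, and 6.63% of the list's 543 regions were wild-type-only. These genes are long, with a median of 11 regions, so regions are counted beside members. ROBO2, a receptor for Slit, had 5 wild-type-only regions of 22 and 0, 1 and 4 peaks against 12, 11 and 17. Its strongest was at 98.9, 99.3 and 86.8. NCAM2, a neural adhesion molecule, had 3 of 18, the strongest at 99.0, 99.2 and 88.9, and OPCML and DAB1 had 4 each. CNTN4, a contactin, went the other way with 3 homozygous-only regions and 1 wild-type-only.

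Of the 34 integrin and focal adhesion genes, 8 had a homozygous-only and 6 a wild-type-only region, and 4.44% of their 270 regions were homozygous-only. ITGA9 had 3, one of them at 82.7, 32.5 and 76.3, and ITGA2, the collagen receptor chain, and TNS1, a tensin, had 2 each. ITGB1, the common beta chain, had 2 wild-type-only regions. Receptor tyrosine kinases and their feedback genes had 6 of 41 members with a homozygous-only and 6 with a wild-type-only region, and 4.51% of 244 regions were homozygous-only. Both member counts ran from 6 to 13 when 1 library was left out. The list was led by IGF1R with 5 and MET, the hepatocyte growth factor receptor, with 2.

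AP-1 and related bZIP genes had 3 of 21 members with a homozygous-only region and 0 with a wild-type-only one. FOSB had it beside its start site at 54.9, 42.7 and 37.9, MAFG at its start at 8.67, 55.2 and 66.0, and BACH2 had 2. The count of regions was 4 of 130 (3.08%), near the 2.72% of all regions. Ranking by fold left 1 member with a homozygous-only region and requiring no peak in the full wild type lists left 0; leaving out 1 library gave 3 to 5 with a homozygous-only and 0 to 2 with a wild-type-only region. The TEAD, YAP and Hippo list had 2 members with a homozygous-only and 6 of 24 with a wild-type-only region, which became 2 to 5 and 6 to 10 when 1 library was left out. CCN2, a well-known YAP target, had a homozygous-only region at 88.0, 89.1 and 5.67, and ANKRD1, another target, a wild-type-only one at 80.2, 42.6 and 89.7.

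Extracellular matrix genes had 5 members with homozygous-only and 8 with wild-type-only regions of 33 with any region, and 5.58% of 197 regions were wild-type-only. TGFBI, a secreted adhesion protein, had a homozygous-only region at 79.8, 56.3 and 87.1, and COL4A5, a basement membrane collagen, a wild-type-only one at 87.5, 94.0 and 89.8. In the mesenchymal and cadherin list 3 of 27 members had a homozygous-only and 5 a wild-type-only region. Leaving out 1 library gave 3 to 9 and 6 to 9, with 9 and 7 without homozygous replicate 2, so the order of the 2 counts was not stable. CTNNA2, a neural catenin, had 4 wild-type-only regions and CTNND2 2 homozygous-only ones. The TGF-beta and BMP list had 4 and 6 of 29 members. SMAD3, a mediator of TGF-beta, had a homozygous-only region at 16.4, 3.63 and 53.6. Wild-type-only regions of this list included those at ID2 and SMAD9, while ACVR1 and BMPR1B had regions of both kinds. In the actin cytoskeleton list, 3.78% of 238 regions were called in each direction. Leaving out 1 library gave 3 to 9 members with a homozygous-only and 5 to 10 with a wild-type-only region. MYLK, the myosin light chain kinase, had a homozygous-only region at 76.3, 76.9 and 98.0, and DIAPH1, a formin, had 3 wild-type-only regions, 2 in its introns and the one in the gamma protocadherin exon nearby.

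The erythroid list had 4 of 36 members with a homozygous-only and 9 with a wild-type-only region, and 5.73% of 227 regions were wild-type-only. The gene model of HBE1, 237.3 kb long, held 17 of the 227 regions and 4 of the 13 wild-type-only ones. The share rests in part on that model, and whether these regions belong to HBE1 was not tested. GFI1B, a repressor of erythroid and megakaryocyte cells, had 1 wild-type-only region at 39.0, 42.5 and 27.6. TAL1, a master factor of blood cells, had a homozygous-only region 9188 bp from its start at 52.2, 56.3 and 64.5. The megakaryocyte list (3 and 3 of 24 members) and the progenitor and myeloid list (3 and 4 of 31) had region shares below the background in both directions. In the progenitor and myeloid list, CD44, a hyaluronan receptor of progenitor and adherent cells, had a homozygous-only region at 70.3, 85.9 and 60. MYC and MECOM also had one. Wild-type-only regions lay at IKZF1, LYZ, RUNX1 and again MECOM. The cohesin list had 1 and 4 of 22 members. Its 6 wild-type-only regions of 94 (6.38%) included the 3 in the far part of the STAG2 gene model, beside SH2D1A and TEX13D, so this share rests in part on that model. Single ones lay at NIPBL, the loader, PDS5B and the ring subunit RAD21, which also had the list's 1 homozygous-only region. In the NF-kappaB list 1 and 3 of 30 members were called.

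**Figure D5:**
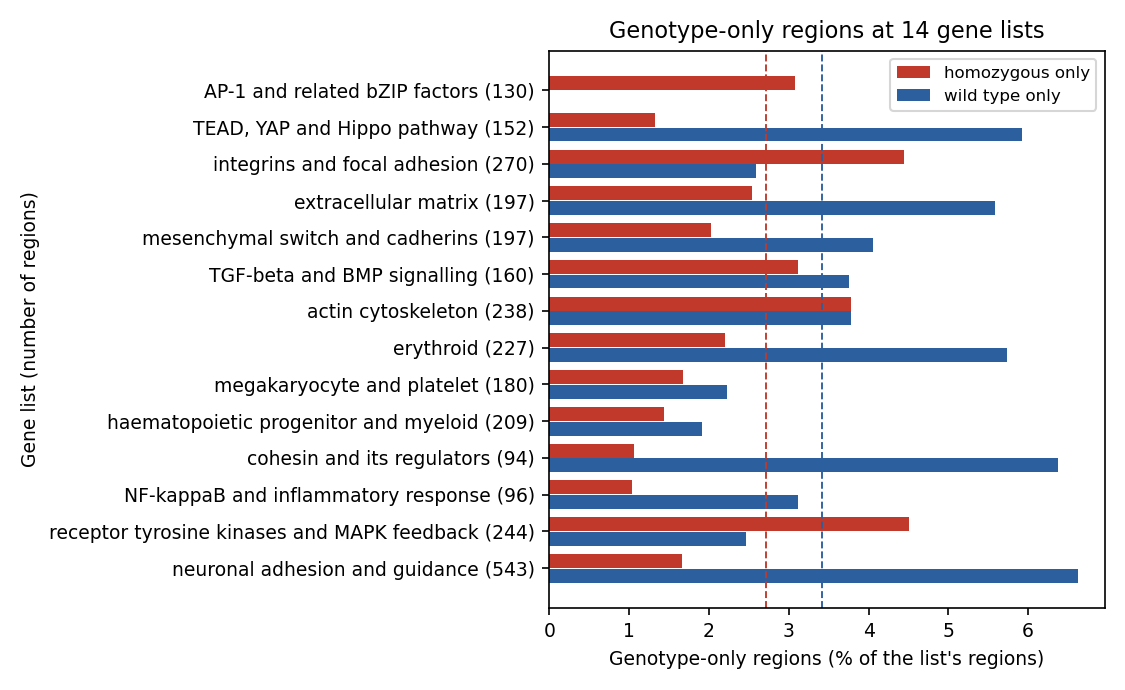
Share of each list's regions that were homozygous-only (red) or wild-type-only (blue), with the number of regions in brackets and dashed lines at the shares over all regions, 2.72% and 3.42%. The neuronal, cohesin, TEAD and erythroid lists exceed the blue line most, and the receptor kinase and integrin lists exceed the red line most. The cohesin share includes 3 wild-type-only regions of the long STAG2 gene model, and the erythroid share 4 of the long HBE1 gene model.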

How the data were processed

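Each library has 1 deposited narrowPeak list, with no header. Per the submitters' processing notes, cutadapt, Bowtie2 2.2.9, Picard and MACS2 2.1.0 were used with hg19 (GRCh37). Settings, and whether reads were shifted for the Tn5 offset, are not given in the sources used here. The deposited columns used are the fold enrichment, a linear ratio, and the −log10 of the p-value and of the q-value from the authors' peak caller; the deposited display score and summit offsets are of another kind. These are the authors' values per peak and served only to rank peaks within a list. Intervals longer than 500 bp are joined windows, whose averaged values can lower a broad peak's rank. Read counts were not used here, so the depth is unknown and no count model was fitted.

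The 50000 strongest peaks per list on chromosomes 1 to 22 and X were merged by 1 bp overlap. Ties at the last rank were drawn at random with a fixed seed. This was chosen after seeing the data, because taking them in genome order favoured low-numbered chromosomes. Genes were taken from the GRCh37 lift of GENCODE release 44; 0 intervals ran past a chromosome end. Motifs were fixed letters on both strands. Library shares were compared by exact two-sided permutation tests over 20 assignments with Benjamini-Hochberg adjustment, in Python (SciPy). The members and gene lists were chosen with earlier results of these data known. Named genes follow a rule: per direction the 8 strongest regions, the 12 strongest start-site regions, the 8 genes with the largest excess, the 8 largest shifts in percentile, the 3 windows of 1 Mb with the largest excess, and up to 4 genes per list; a few of these are not reported here.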

Additional observations from a re-analysis of the deposited data

How the results depend on the processing

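With 25000, 100000 or all peaks per list the counts were 1405, 4505 and 6419 homozygous-only and 1705, 5300 and 15831 wild-type-only regions; full lists differ in length. Requiring every full list of the opposite genotype to lack a peak left 275 and 276. The AP-1 share of homozygous-only regions was then 60.7%; it was 32.2% with 25000 peaks, 38.8% with full lists, 35.4% with unjoined intervals of at most 500 bp and 29.3% in a 200 bp window. The CTCF share of wild-type-only regions was 4.51% with 100000 peaks, 1.11% with full lists, 3.26% without any peak in the other genotype's full lists, 6.23% with unjoined intervals and 6.56% in 200 bp. The start-site share was 22%, 5.59%, 4.19%, 3.64% and 10.9% for homozygous-only regions with 25000 peaks, 100000 peaks, full lists, no peak in the other full lists and a 2.5 kb limit; the wild-type-only shares that moved were 8.33%, 2.22%, 3.62% and 9.22% with 25000 peaks, full lists, no peak in the other full lists and 2.5 kb. The cause of these shifts was not tested. Ranking by fold or q, tie handling, and counting wild type replicates 1 and 2 as 1 source kept both counts within 1.5 times. Requiring a library's peaks to cover 250 bp of a region gave identical values. Every peak is a window of 500 bp or joined from such windows, so this setting could not change a call and tests nothing.

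Leaving out 1 library at a time gave 2937 to 4614 homozygous-only and 3962 to 7348 wild-type-only regions. The AP-1 share then ran from 38.7% to 44.5%, the CTCF share from 6.17% to 8.88%, and the start-site shares from 7.22% to 10.8% (homozygous-only) and from 4.36% to 6.36% (wild-type-only). Small differences in summit or peak share whose groups overlapped changed sign in some of these runs: GATA ran from -0.448 to 0.212 points, NF-Y from -0.415 to 0.0893, ETS from -0.157 to 0.0223, KLF1 from -0.0533 to 0.00267 and intergenic peaks from -0.239 to 0.036. Under other settings, sign changes included CTCF at 0.0677 points, KLF1 at 0.223, NF-kappaB at 0.0291 and exons at 0.486 with full lists, CRE at -0.0157 and KLF1 at 0.102 with 100000 peaks, and NF-kappaB at 0.0727 with unjoined intervals.

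The deviations of same-numbered libraries from their group means correlated at 0.0118, -0.00544 and -0.000793 over 21111 shared regions. Differently numbered libraries ran from -0.00892 to 0.0102, so this measure showed no pairing by replicate number. Whether same-numbered libraries shared a batch was not tested. With the replicate block, the paired sign-flip test gave AP-1 3.44 points and CTCF -0.785 points, each with an exact p of 0.25, the smallest that 3 pairs allow. The tie settings, and the alternatives for the 17, 19 and 22, protocadherin and shared CTCF results, were added after seeing the data; these 3 differences kept their direction in all of theirs. Ranked by fold or by q, 21 percentiles of named regions moved by more than their spread and 89 did not. Member counts of gene lists moved by over 1.5 times in 53 cases and stayed within it in 87 under the alternatives that keep all libraries, and in 45 and 123 when 1 library was left out.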
